A study of Homo with 4 samples.

Results

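The proteasome genes are the genes whose symbol, assigned by GRCh38 position, begins with PSMA, PSMB, PSMC, PSMD or PSME followed by a digit. This rule found 45 of 20263 genes. It named 43 subunits, base chaperones and activators, and 2 genes that share the letters but are no subunits (PSMC3IP and PSME3IP1). Of the 43, 41 had enough counts to be tested. PSMA8, the testis form of an alpha subunit, was listed at 0 in all 4 libraries, and PSMB11, the thymic catalytic subunit, had 2 and 4 counts in shCtrl and 8 and 0 in shIGF2BP3.

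RNA-seq was performed in H1299 cells, an established line of human non-small cell lung cancer. Cells of both groups had been infected with lentivirus, carrying either a control hairpin (shCtrl, 2 libraries) or a hairpin against IGF2BP3 (shIGF2BP3, 2 libraries). Both groups carry the genotype label WT, the labels call the 2 libraries of a group biological replicates, and which hairpin was used is not given there. Total counts were between 29709686 and 34817513 per library, and mitochondrially encoded genes took between 9.11% and 17.02% of them, with the highest share in shIGF2BP3 replicate 2.

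The proteasome degrades proteins that carry ubiquitin chains. Its core is a barrel of stacked rings: outer rings of alpha subunits form the gate, and inner rings of beta subunits enclose the catalytic sites, of which PSMB6, PSMB7 and PSMB5 hold the caspase-like, trypsin-like and chymotrypsin-like activities. The regulatory particle that caps the barrel has a base, whose ATPases unfold substrates, and a lid, whose PSMD14 removes ubiquitin, while the PSME activators can cap the barrel in its place.

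IGF2BP3, the RNA-binding protein targeted by the hairpin (ENSG00000136231, chr7:23310209-23470467, minus strand), had 41.1 and 32.9 CPM (counts scaled to library size, with TMM factors) in shCtrl and 26.4 and 24.8 in shIGF2BP3. The groups did not overlap, and the knockdown mean was 69.1% of the control mean. The log2 fold change was -0.53 ± 0.17 (SE, n = 2 per group) with an adjusted p of 0.472 (edgeR quasi-likelihood fit, Benjamini-Hochberg over 13379 genes). IGF2BP3 mRNA was thus lower but far from absent, and the difference did not pass the adjusted threshold. All fold changes below are shIGF2BP3 relative to shCtrl, on the log2 scale, from the same fit, with n = 2 per group. In RNA from whole cultures, fewer cells with a transcript and less of it per cell cannot be told apart.

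The proteasome genes differed in both directions between the groups. Of the 41 tested, 15 had a higher and 26 a lower level in shIGF2BP3, so 63.4% were lower against 50.2% of all genes tested. The split was 12 higher and 29 lower when counts were scaled by library totals, where the share of all genes that were lower was not counted. That scaling also moved the median log2 fold change of all genes down, to -0.08, with that of the proteasome genes at -0.15. In the main fit the median of the proteasome genes was -0.07, beside 0.00 over all genes. At the thresholds used in the study, a 1.5-fold difference that also passes the nominal threshold (unadjusted p of at most 0.05), 1 gene was called higher (PSMD12, background 2.54% of all genes) and 1 lower (PSMB5, background 2.78%), so 2 of 41 were called in either direction (background 5.32%). None passed an adjusted p under 0.05 in edgeR's quasi-likelihood test, as for all genes tested (0.0%), and the adjusted p-values ran from 0.381 to 0.987. Regardless of fold, 9 of 41 passed the nominal threshold (22.0%, background 10.5%). PSMA3, PSMD12, PSMD5 and PSMD10 were higher (background 5.43%), and PSMA2, PSMA5, PSMA7, PSMB5 and PSMB6 were lower (background 5.12%). DESeq2 on the same counts gave 2 genes with an adjusted p under 0.05, PSMB5 and PSMD12, beside 160 of all 13379 genes tested. The 9 genes rest in part on 1 library: without shIGF2BP3 replicate 2, the library with the highest mitochondrial share, PSMB5 and PSMD12 were the 2 that still passed the nominal threshold. Whether that share has a part in the differences was not tested.

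The groups did not overlap in 9 genes with higher values (22.0%, background 23.3%) and in 12 with lower values (29.3%, background 23.5%), shares near those of all genes. Replicates of the proteasome genes lay close together. The median absolute log2 gap between replicates was 0.131 in shCtrl and 0.134 in shIGF2BP3, beside 0.206 and 0.183 over all genes tested. The genes set side by side here were not matched for level.

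**Figure D1:**
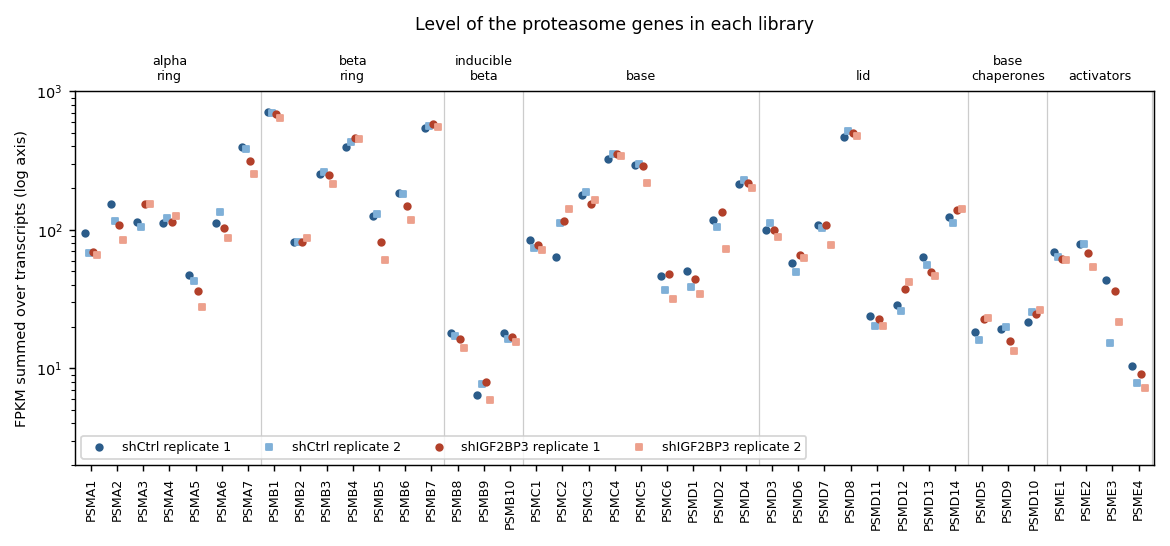
Level of the 41 tested proteasome genes in each library, as FPKM summed over transcripts on a log axis, with 1 point per library and genes grouped by their place in the complex. Levels run from single digits (PSMB9, PSME4) to 703 (PSMB1). The 4 points of most genes lie close together, with PSME3 and PSMC2 as exceptions. The counts of PSMC2 were closer together, at 193 and 197 CPM in shCtrl and 210 and 239 in shIGF2BP3.

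Levels between genes were compared in FPKM, which is scaled by transcript length. The constitutive beta ring had the highest summed level of the parts, 2294 and 2341 FPKM in shCtrl and 2288 and 2134 in shIGF2BP3. The alpha ring had 1025 and 974 FPKM in shCtrl and 896 and 798 in shIGF2BP3, so both knockdown libraries were below both controls. Single subunits of the beta ring ranged over a wide span, from 81.7 (PSMB2) to 703 (PSMB1) FPKM in shCtrl replicate 1. The inducible subunits, the base chaperones, PSMD11 and PSME4 lay at the low end.

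**Figure D2:**
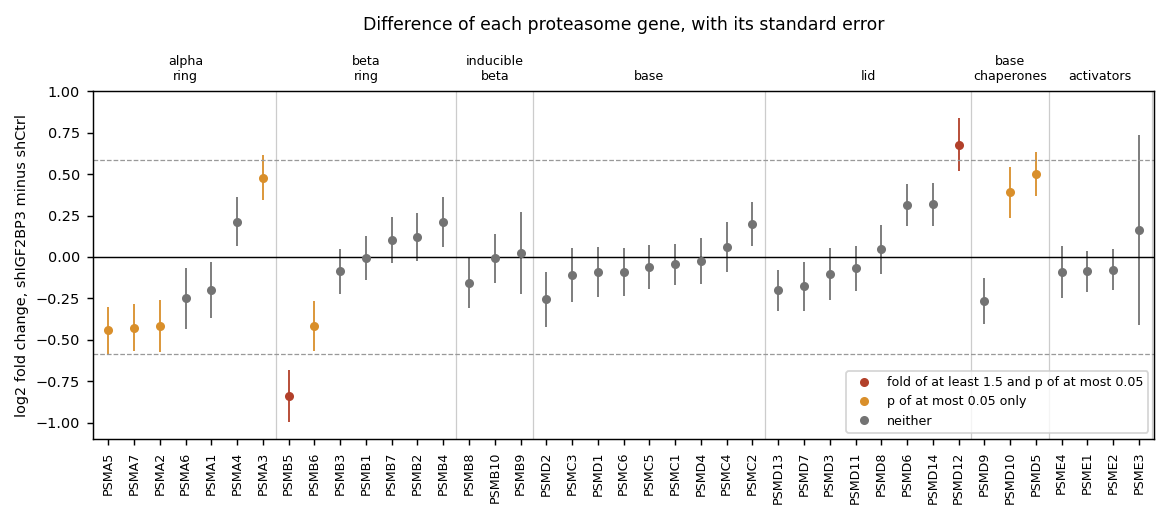
Log2 fold change of each tested proteasome gene (points) with its standard error (bars) from the edgeR fit, by place in the complex, with dashed lines at a fold of 1.5. PSMB5 at -0.84 and PSMD12 at 0.68 lie beyond the dashed lines and passed the nominal threshold, and 7 more genes, in orange, passed it at a smaller fold.

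In the alpha ring, 2 of the 7 tested genes were higher and 5 lower, with a median log2 fold change of -0.25. This median was -0.10 with overlapping genes pooled. It turned to 0.11 when each gene was counted by its most abundant transcript alone, chosen by mean FPKM over all libraries. The 0.11 was the value of PSMA2, and the transcript counted for it led by FPKM in the shIGF2BP3 libraries only. At the nominal threshold 1 was higher (background 5.43% of all genes) and 3 were lower (background 5.12%). Among these 3 is PSMA2, whose value depends on an overlapping gene. PSMA7, the most abundant alpha subunit by FPKM, had 406 and 436 CPM in shCtrl and 336 and 291 in shIGF2BP3. Its groups did not overlap, and its log2 fold change was -0.43 ± 0.14 (adjusted p = 0.472 in edgeR). PSMA5 had 169 and 159 CPM in shCtrl and 130.04 and 111 in shIGF2BP3, again without overlap, at -0.44 ± 0.14 (adjusted p = 0.472 in edgeR). PSMA3 went the other way, with 115 and 117 CPM in shCtrl and 151 and 172 in shIGF2BP3, and both knockdown libraries were above both controls. Its difference was 0.48 ± 0.14 (adjusted p = 0.472 in edgeR). PSMA4 was also higher, at 180 and 197 CPM in shCtrl and 199 and 237 in shIGF2BP3 (0.21 ± 0.15, adjusted p = 0.598 in edgeR). The members of this ring, which assemble with each other in fixed number, thus differed in both directions.

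PSMA2 is the alpha subunit whose value depends on how a neighbouring annotation is counted. It had 237 and 198 CPM in shCtrl and 175 and 152 in shIGF2BP3, without overlap, at -0.42 ± 0.16 (adjusted p = 0.472 in edgeR). An Ensembl gene without an assigned symbol, ENSG00000256646 (chr7:42909273-42932174, minus strand), covers 99.7% of the span of PSMA2 (chr7:42916857-42932223) on the same strand and runs on beyond its 3′ end. That gene had 8 and 11 counts in shCtrl but 1734 and 739 in shIGF2BP3. It took 0.09% and 0.16% of the joint counts in shCtrl and 22.3% and 15.04% in shIGF2BP3, so the libraries of the groups were far apart. With both genes pooled, the values were 237 and 199 CPM in shCtrl and 225 and 178 in shIGF2BP3, which overlapped, and the log2 fold change was -0.10. Within PSMA2 itself, transcript ENST00000223321 went from 120 and 97.6 CPM to 54.8 and 42.7, while ENST00000436986 had 107 and 91.2 CPM in shCtrl and 111 and 103 in shIGF2BP3.

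PSMA1 and PSMA6 were overlapped in the same way. PSMA6 (chr14:35278633-35317493) lies almost wholly within ENSG00000258790 on the plus strand, which had 121 and 428 counts in shCtrl and 459 and 250 in shIGF2BP3. PSMA6 itself had 112 and 153 CPM in shCtrl and 111 and 112 in shIGF2BP3 (-0.25 ± 0.18, adjusted p = 0.610 in edgeR), so shCtrl replicate 2 alone was high. PSMA1 shares 11.1% of its span with ENSG00000256206, which took 0.56% to 1.71% of the joint counts. PSMA1 had 156 and 120 CPM in shCtrl and 118 and 122 in shIGF2BP3 (adjusted p = 0.664 in edgeR), and the groups overlapped. With the most abundant transcript alone, the log2 fold change turned to 0.41 for PSMA1 and 0.47 for PSMA6. For PSMA6 that transcript, ENST00000261479, had 39.2 and 63.3 CPM in shCtrl and 38.9 and 103 in shIGF2BP3. It led by FPKM in shIGF2BP3 replicate 2 only, where ENST00000553809, which led in the other libraries, was at 0. For PSMA1 that transcript, ENST00000396394, led in all libraries but shCtrl replicate 1, where ENST00000530457 led.

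In the constitutive beta ring, 3 of 7 genes were higher and 4 lower, with a median of -0.01. The 2 that passed the nominal threshold (background 10.5% of all genes) were both catalytic. PSMB5, the chymotrypsin-like subunit and the main target of bortezomib (ENSG00000100804, chr14:23016543-23035230, minus strand), had 161 and 175 CPM in shCtrl and 103 and 84.8 in shIGF2BP3. Both knockdown libraries were well below both controls, at 55.9% of the control mean. The log2 fold change was -0.84 ± 0.16 (adjusted p = 0.381 in edgeR's quasi-likelihood test), the largest difference among the proteasome genes tested. DESeq2 gave it an adjusted p of 0.000694, and over the settings that kept all libraries its adjusted p ran from there to 0.544, with the fold change between -1.04 and -0.84. Leaving out shIGF2BP3 replicate 2 left the fold change at -0.71.

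PSMB6, the caspase-like subunit, had 168 and 183 CPM in shCtrl and 143 and 120 in shIGF2BP3. The groups did not overlap, and the difference was -0.42 ± 0.15 (adjusted p = 0.472 in edgeR). PSMB7, the trypsin-like subunit, had 581 and 659 CPM in shCtrl and 653 and 679 in shIGF2BP3, with shCtrl replicate 2 above the lower knockdown library (0.10 ± 0.14, adjusted p = 0.779 in edgeR). The fold changes of the 3 catalytic subunits therefore did not share a sign, but that of PSMB7 was smaller than its standard error. Its direction was thus not settled. PSMB5 stood at 0.231 and 0.232 times the FPKM of PSMB7 in shCtrl and at 0.140 and 0.109 times in shIGF2BP3. The 4 non-catalytic beta genes lay between -0.09 (PSMB3) and 0.21 (PSMB4), with the structural subunit PSMB1 at 709 and 780 CPM in shCtrl and 731 and 749 in shIGF2BP3.

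The inducible subunits PSMB8, PSMB9 and PSMB10 replace PSMB5, PSMB6 and PSMB7 in the immunoproteasome, the form that interferon-treated and immune cells assemble. None of the 3 passed the nominal threshold, and their adjusted p-values in edgeR ran from 0.702 to 0.987. PSMB8 had 24.7 and 25.6 CPM in shCtrl and 23.4 and 21.8 in shIGF2BP3, which did not overlap, at -0.15 ± 0.15. PSMB9 was the lowest of the tested genes, with 5.48 and 7.29 CPM in shCtrl and 7.16 and 5.81 in shIGF2BP3. PSMB10 had 23.3 and 23.8 CPM in shCtrl and 23.5 and 23.4 in shIGF2BP3. It shares 44.1% of its span with the unnamed ENSG00000261884 on the same strand, which took 9.19% to 11.8% of the joint counts.

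Within each pair, the inducible gene was the minor one. PSMB8 made up 12.4% and 11.6% of the summed FPKM of PSMB5 and PSMB8 in shCtrl and 16.7% and 18.8% in shIGF2BP3. The knockdown libraries were above the controls, while PSMB8 itself was not higher and PSMB5 was lower. The share of PSMB9 was 3.38% and 4.10% in shCtrl and 5.07% and 4.84% in shIGF2BP3, also without overlap. The share of PSMB10 was 3.20% and 2.84% in shCtrl and 2.80% and 2.69% in shIGF2BP3. These shares are given as a description, without a test.

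**Figure D3:**
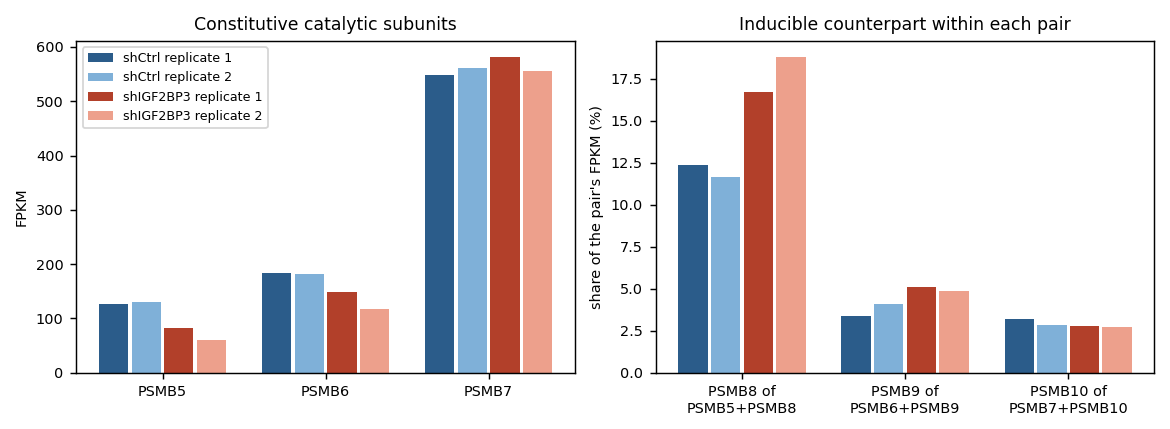
Left, FPKM of the constitutive catalytic subunits in each of the 4 libraries. Right, the share in percent of each inducible subunit in the summed FPKM of its pair. PSMB5 and PSMB6 bars are lower in both shIGF2BP3 libraries, PSMB7 bars are not, and PSMB8 makes up 12.4% and 11.6% of its pair in shCtrl and 16.7% and 18.8% in shIGF2BP3.

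In the base, 2 of 9 genes were higher and 7 lower, with a median of -0.06, and none passed the nominal threshold in edgeR (adjusted p from 0.578 to 0.959). The 6 ATPases, PSMC1 to PSMC6, lay between -0.11 (PSMC3) and 0.20 (PSMC2). PSMC4, the most abundant of them by FPKM, had 551 and 664 CPM in shCtrl and 623 and 645 in shIGF2BP3, so the knockdown libraries lay within the control range. PSMD2, a scaffold subunit that receives ubiquitin receptors, had the smallest p of the base, with 420 and 418 CPM in shCtrl and 396 and 306 in shIGF2BP3. Only shIGF2BP3 replicate 2 was far below the others (-0.26 ± 0.17, adjusted p = 0.578 in edgeR). With the most abundant transcript of PSMD2 alone, ENST00000310118, the log2 fold change was -1.27, but there shIGF2BP3 replicate 1 was the lowest library. That transcript had 391 and 403 CPM in shCtrl and 26.0 and 303 in shIGF2BP3. PSMD4, a ubiquitin receptor, had 311 and 365 CPM in shCtrl and 333 and 331 in shIGF2BP3 and did not separate the groups.

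The lid genes found by symbol were evenly divided, with 4 of 8 higher, 4 lower and a median of -0.01. When scaled by library totals, 3 were higher and 5 lower. PSMD12 (ENSG00000197170, chr17:67337916-67366627, minus strand), a scaffold subunit of the lid, had 124 and 136 CPM in shCtrl and 187 and 229 in shIGF2BP3. Both knockdown libraries were above both controls, at 160% of the control mean. Its log2 fold change was 0.68 ± 0.16 (adjusted p = 0.472 in edgeR), and DESeq2 gave an adjusted p of 0.0218, with values from there to 0.599 over the settings that kept all libraries. Without shIGF2BP3 replicate 2 the fold change was 0.52, under a fold of 1.5. One transcript, ENST00000356126, carried nearly all of it, with 118 and 135 CPM in shCtrl and 185 and 227 in shIGF2BP3.

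A further pair of lid genes were higher without overlap but did not pass the nominal threshold. PSMD14, the deubiquitinase, had 260 and 264 CPM in shCtrl and 311 and 342 in shIGF2BP3 (0.32 ± 0.13, adjusted p = 0.476 in edgeR). PSMD6 had 88.8 and 83.1 CPM in shCtrl and 105 and 108 in shIGF2BP3 (0.31 ± 0.13, adjusted p = 0.477 in edgeR). PSMD13 was lower without overlap, with 103 and 102 CPM in shCtrl and 88.5 and 89.9 in shIGF2BP3 (-0.20 ± 0.12, adjusted p = 0.557 in edgeR). PSMD8 was the most abundant lid gene, at 471 and 518 FPKM in shCtrl and 504 and 474 in shIGF2BP3, and did not separate the groups. Among the 17 base and lid genes found by symbol, 1 passed the nominal threshold (5.9%, background 10.5% of all genes). SEM1 and ADRM1, further subunits of the regulatory particle, are listed below with the bound factors, where SEM1 passed and ADRM1 did not. In the alpha and constitutive beta rings 6 of 14 passed (42.9%), among them PSMA2, whose value depends on its overlapping gene. The difference between these parts was not tested.

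PSMD5, PSMD9 and PSMD10 carry subunit names but are chaperones that guide assembly of the base and leave it before the particle is complete. PSMD5 had 65.4 and 65.7 CPM in shCtrl and 87.4 and 98.1 in shIGF2BP3, without overlap (0.50 ± 0.13, adjusted p = 0.472 in edgeR). PSMD10, also named gankyrin, had 32.7 and 33.4 CPM in shCtrl and 39.6 and 47.0 in shIGF2BP3, without overlap (0.39 ± 0.15, adjusted p = 0.472 in edgeR). PSMD9 was lower, with 48.4 and 51.2 CPM in shCtrl and 43.2 and 39.7 in shIGF2BP3 (-0.27 ± 0.14, adjusted p = 0.517 in edgeR). It lies within the unnamed ENSG00000256950, which was listed at 0 in 3 libraries and at 3 counts in shIGF2BP3 replicate 2.

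Among the activators 1 of 4 was higher and 3 lower, with a median of -0.08 and no adjusted p under 0.797 in edgeR. PSME1 and PSME2 form the interferon-induced activator and lie near each other on chromosome 14. PSME1 had 75.8 and 77.4 CPM in shCtrl and 70.9 and 73.3 in shIGF2BP3, and PSME2 had 90.6 and 93.4 CPM in shCtrl and 87.8 and 86.6 in shIGF2BP3. Neither overlapped between groups, and the differences of the gene sums were -0.09 ± 0.12 and -0.08 ± 0.12. Counted by the most abundant transcript alone, PSME1 was at -0.84 and PSME2 turned to 0.54. For PSME2 the transcript counted, ENST00000216802, led by FPKM in the shIGF2BP3 libraries only, while ENST00000560370 led in both shCtrl libraries. The higher value of PSME2 in that setting thus depends on which transcript was chosen. That transcript of PSME1, ENST00000206451, had 54.3 and 59.2 CPM in shCtrl and 36.0 and 27.3 in shIGF2BP3, without overlap. PSME4, which binds the core in the nucleus, had 80.4 and 66.8 CPM in shCtrl and 73.8 and 64.3 in shIGF2BP3, and the groups overlapped.

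PSME3, the nuclear activator, could not be compared with any precision. It had 128 and 37.0 CPM in shCtrl and 112 and 72.4 in shIGF2BP3, a log2 gap of 1.78 between the control replicates. Its difference was 0.16 ± 0.57 (adjusted p = 0.927 in edgeR). Transcript ENST00000293362 had 117 CPM in shCtrl replicate 1 and 104 in shIGF2BP3 replicate 1 but 1 count in each replicate 2, where ENST00000622892 had 16.3 and 59.2 CPM and was at 0 in each replicate 1. Leaving out shCtrl replicate 1 gave a log2 fold change of 1.32 and leaving out shCtrl replicate 2 gave -0.47, so the direction for PSME3 rested on 1 library.

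The division of counts between the transcripts of a gene was less stable than the gene sums. Of 39 proteasome genes with more than 1 transcript, 23 (59.0%, beside 61.1% of 11632 such genes tested) had the same most abundant transcript by FPKM in all 4 libraries. In 14 (35.9%, beside 35.6%) it differed between replicates of a group, and in PSMA2 and PSME2 alone it differed between groups and not within them. PSMD2 shows how far this went: ENST00000310118 had 391, 403 and 303 CPM in both shCtrl libraries and shIGF2BP3 replicate 2 but 26.0 CPM in shIGF2BP3 replicate 1, where ENST00000435761 had 364 CPM. In PSMA3, ENST00000557508 had 1.20 and 1.39 CPM in shCtrl and 62.4 and 47.5 in shIGF2BP3, while the main transcript ENST00000216455 had 104 and 103 CPM in shCtrl and 32.1 and 109 in shIGF2BP3. As the counts were divided, the higher sum of PSMA3 lay in its other transcripts. Counting ENST00000216455 alone gave a log2 fold change of -0.56, but that transcript was low in shIGF2BP3 replicate 1 only. Transcripts of a gene share exons, and the tool that divided the counts is not given in the sources used here.

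**Figure D4:**
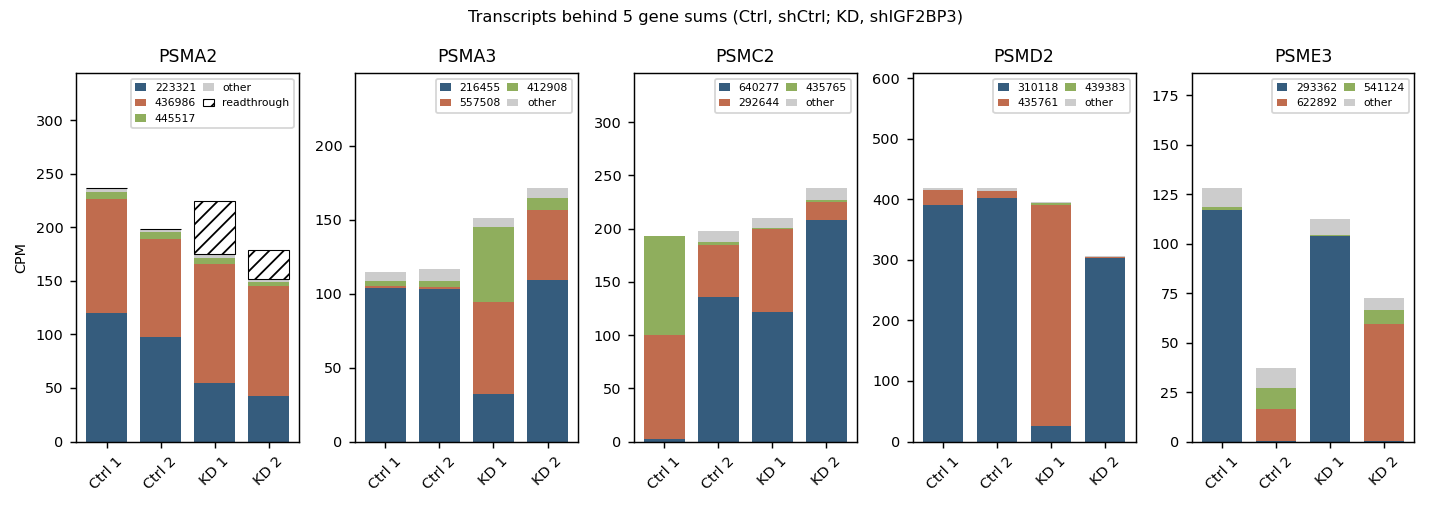
CPM of the 3 most abundant transcripts of PSMA2, PSMA3, PSMC2, PSMD2 and PSME3 and of their other transcripts together, stacked for each library (Ctrl, shCtrl, and KD, shIGF2BP3). Keys are the last digits of the Ensembl transcript identifiers, and the hatched part is the unnamed gene over PSMA2. The hatched part is visible in both shIGF2BP3 libraries, and in PSMA3, PSMC2, PSMD2 and PSME3 the leading transcript changed between replicates of a group.

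Other genes of the pathway were taken from lists, and the counts of each list stand here beside the proteasome genes. Assembly factors and inhibitors were the list with the clearest shared sign: 8 of 8 were higher (7 of 8 when scaled by library totals). Over all 13379 genes tested, 6658 were higher. The median of the list was 0.34, and 2 of 8 passed the nominal threshold (25%, background 5.43% higher). PSMG1, a chaperone of the alpha ring, had 70.1 and 79.8 CPM in shCtrl and 94.9 and 115 in shIGF2BP3 (0.49 ± 0.16, adjusted p = 0.472 in edgeR). Its partner PSMG2 had 34.7 and 35.4 CPM in shCtrl and 43.5 and 53.7 in shIGF2BP3 (0.47 ± 0.16, adjusted p = 0.472 in edgeR), and neither gene overlapped between groups. POMP, which matures the beta ring, had 195 and 156 CPM in shCtrl and 218 and 251 in shIGF2BP3 (0.42 ± 0.17, adjusted p = 0.475 in edgeR).

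Of the bound factors, 5 of 7 were higher, with a median of 0.18. The small lid subunit SEM1 had 222 and 282 CPM in shCtrl and 318 and 381 in shIGF2BP3 (0.47 ± 0.18, adjusted p = 0.472 in edgeR), without overlap.

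The interferon list, genes that act in the induction of PSMB8, PSMB9 and antigen processing, had 1 of 7 genes higher and 6 lower, with a median of -0.40. TAP2, a subunit of the peptide transporter, had 139 and 130 CPM in shCtrl and 111 and 93.0 in shIGF2BP3, without overlap (-0.40 ± 0.15, adjusted p = 0.472 in edgeR). The transcription factor STAT2 had 11.9 and 8.47 CPM in shCtrl and 6.98 and 3.49 in shIGF2BP3 (-0.96 ± 0.38, adjusted p = 0.474 in edgeR). The shuttles and segregase had 4 of 11 tested genes higher and 7 lower, with a median of -0.05 and none past the nominal threshold. The shuttle DDI2, a protease that activates NFE2L1, had the smallest p of that list, with 32.4 and 29.5 CPM in shCtrl and 37.7 and 40.6 in shIGF2BP3 (0.34 ± 0.15, adjusted p = 0.480 in edgeR).

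**Figure D5:**
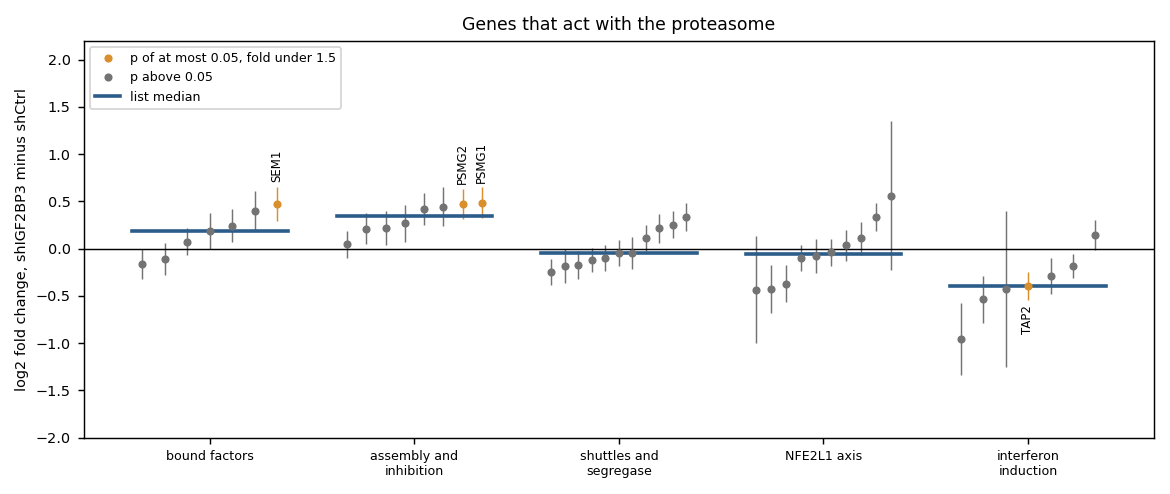
Log2 fold change of the tested genes of 5 pathway lists, with standard errors as bars, the list median as a blue line and the median of all genes as a black line. All 8 assembly and inhibition genes lie above the black line, SEM1, PSMG1, PSMG2 and TAP2, in orange, passed the nominal threshold at a fold under 1.5, and 6 of 7 interferon genes lie below the line.

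Some of the proteasome genes have pseudogenes, whose likeness in sequence was not measured here, and how reads shared with them were counted is not given in the sources used here. RefSeq (GRCh38.p14) lists 51 pseudogenes that carry the names of 20 of the 43 proteasome genes, with 13 for PSMC1 and 6 for PSME2. Of the 9 genes past the nominal threshold, 6 have at least 1, and PSMB5, PSMB6 and PSMD5 have none. In 12 of the 43, a gene on the opposite strand overlaps the span, and whether the counting used strand is not given in the sources used here. The cell identity was checked on marker lists: the keratins KRT8 and KRT18 were abundant in all 4 libraries and KRT7 was low, while EPCAM, CDH1 and KRT19, the other epithelial markers, were at or near 0. Leukocyte markers summed to 44.95 and 45.2 CPM in shCtrl and 50.04 and 48.1 in shIGF2BP3, nearly all of it CD68, with PTPRC and CD3E at 0. Endothelial markers summed to at most 0.69 CPM and fibroblast markers to at most 1.74 CPM, and COL1A1 alone of both lists reached 1 CPM in any library.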

How the data were processed

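RNA-seq had been performed on 4 libraries of H1299 cells, 2 shCtrl and 2 shIGF2BP3, grouped by their labels. Different kinds of values had been deposited for each transcript: estimated counts, rounded to integers by the authors and not normalized, and FPKM, which the authors scaled to length and sequencing depth. The submitters' processing notes name CASAVA, Trimmomatic, HISAT2, bedtools, FastQC and GRCh38, and the counter, the annotation release and the strand setting are not given in the sources used here. The count table numbers the shIGF2BP3 libraries 2 and 3, and columns were tied to samples through the names in the per-sample tables.

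Counts and FPKM of 95139 transcripts were summed to 20263 genes. Symbols were given by position from RefSeq (GRCh38.p14) where a RefSeq gene and an Ensembl gene were each other's best overlap, at 0.5 or more of their joint length and with a lead of 0.2 over any other gene, which named 18223 genes. The lead was waived for PSMD9 (overlap 0.998 against 0.902). The 13379 genes kept by filterByExpr (minimum count 10, minimum total 15) were fitted with edgeR 4.0.16 in R 4.3.3 (TMM, quasi-likelihood test, no block), with Benjamini-Hochberg adjustment over all of them. TMM factors lay between 0.927 and 1.085, and the biological coefficient of variation was 22.8%, so the small number of libraries limits precision more than the read depth does. Each p-value sets the difference between groups against the spread between these libraries, which is estimated in part from all genes fitted. The fit was tested on simulated counts.

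Members and gene lists were chosen with earlier results of these data known. Values in every library were given for members past a 1.5-fold difference that passed the nominal threshold (unadjusted p of at most 0.05), the member with the smallest p in each part of the complex, catalytic and inducible subunits, activators, members overlapped by an unnamed gene on the same strand, and the gene with the smallest p in each pathway list. The other genes with values were chosen after their values were seen. Alternatives were DESeq2 1.42.0, other size factors and filters, a replicate block, limma 3.58.1 on log2(FPKM + 1) or log2(FPKM + 0.1), pooled overlapping genes, the most abundant transcript alone and each library left out. The most abundant transcript was the one with the highest mean FPKM over all libraries of both groups. Library totals without mitochondrial genes, and the count at an unadjusted p, were added after seeing the data. A pathway list named in the plan is not reported here.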

Additional observations from a re-analysis of the deposited data

How the results depend on the processing

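Limits of this comparison are the 2 libraries per group, an incomplete knockdown and an uncertain division of counts between transcripts. The count of proteasome genes at an adjusted p under 0.05 was 0 in edgeR and 2 in DESeq2. DESeq2 called 160 of all 13379 genes tested at that threshold. The count past the nominal threshold was 9, and 3 with limma on log2(FPKM + 0.1), and 2 to 8 with 1 library left out, lowest without shIGF2BP3 replicate 2. The count called higher was 1, 0 in all 3 limma fits, 0 at a fold of 2, 2 with the most abundant transcript alone and 0 to 2 with 1 library left out. The count called lower was 1, 0 at a fold of 2 and 2 with the most abundant transcript alone. The alpha ring median of -0.25 was -0.32 with library totals, -0.36 in the limma fits, -0.10 with overlapping genes pooled, 0.11 with the most abundant transcript alone and -0.37 to -0.24 with 1 library left out. The lid median of -0.01 was -0.090 with library totals, -0.040 with totals without mitochondrial genes, 0.089 with the most abundant transcript alone and -0.043 to 0.12 with 1 library left out. The other medians moved by less than the spread between replicates. The IGF2BP3 log2 fold change of -0.53 passed a fold of 1.5 with library totals (-0.62) and in limma (-0.60 and -0.68), and was -0.68 to -0.36 with 1 library left out. PSMB9 (0.02) changed sign with library totals (-0.038) and in limma (-0.034, and -0.039 with the smaller pseudocount), and PSMB10 with overlapping genes pooled (0.019). With the most abundant transcript alone, signs changed for PSMA1 (0.41), PSMA2 (0.11), PSMA3 (-0.56), PSMA6 (0.47), PSMB10 (0.0096), PSME2 (0.54) and PSME3 (-0.17). The transcript counted led by FPKM only in the shIGF2BP3 libraries for PSMA2 and PSME2, and only in shIGF2BP3 replicate 2 for PSMA6. In that setting PSME1 (-0.84) and PSMD10 (0.79) passed the fold and p thresholds. With 1 library left out, signs also changed for PSMA1 (-0.38 to 0.0072), PSMB9 (-0.17 to 0.24), PSMB10 (-0.020 to 0.0060), PSME4 (-0.22 to 0.051) and PSME3 (-0.47 to 1.32). Pathway genes called numbered 0, 0 to 4 under the other settings and 2 to 6 with 1 library left out. Beyond the settings' own construction, the cause was not tested. Replicate numbers are shared by the groups, and the departures of libraries with the same number were hardly correlated (0.04). Yet replicate 2 had the higher mitochondrial share in both groups, 13.4% against 9.11% in shCtrl and 17.02% against 11.4% in shIGF2BP3. Its TMM factor was also the lower in both, 0.973 against 1.085 in shCtrl and 0.927 against 1.021 in shIGF2BP3. Whether libraries with the same number were handled together was not tested. With the replicate number as a block, the counts called higher and lower were 1 and 1, 8 proteasome genes passed the nominal threshold, 1 pathway gene was called and the alpha ring median was -0.23.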

Other observations

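NFE2L1, a transcription factor that raises proteasome genes when the particle is impaired, had 190 and 41.9 CPM in shCtrl and 89.6 and 253 in shIGF2BP3, so the spread within each group was larger than the difference between them (0.56 ± 0.78 on the log2 scale, adjusted p = 0.789 in edgeR). In the list of this pathway 4 of 10 genes were higher and 6 lower, with a median of -0.06, and none passed the nominal threshold. NFE2L2, the oxidative stress factor, had 38.5 and 58.2 CPM in shCtrl and 31.1 and 40.8 in shIGF2BP3 (-0.43 ± 0.25, adjusted p = 0.548 in edgeR), and the groups overlapped.

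The 2 genes whose symbols resemble those of subunits were both lower. PSMC3IP, a recombination factor, had 15.6 and 16.5 CPM in shCtrl and 12.7 and 13.1 in shIGF2BP3, without overlap (adjusted p = 0.517 in edgeR). PSME3IP1, which binds PSME3, had 83.5 and 100.4 CPM in shCtrl and 80.3 and 92.8 in shIGF2BP3, with overlap (adjusted p = 0.843 in edgeR). By position, 8 of the 43 proteasome genes lie on chromosome 14 and 7 on chromosome 17. PSMB5, at -0.84, and PSMA3, at 0.48, both lie on chromosome 14.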
